A study of Mus musculus with 18 samples.

Results

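Hepatic stellate cells (HSC) and intrahepatic cholangiocyte organoids (ICO) that had shared a Matrigel culture for 7 days were compared after sorting. The comparison used 6 of the 18 libraries of the series: 3 of co-cultured HSC and 3 of co-cultured ICO. All genes of the deposited table were considered, and the description follows the division of matrix, ligands, receptors and metabolism between the 2 sorted populations. HSC came from healthy wild-type mice, and the organoids carried a dTomato tag. Both populations had the same medium, a mixture of serum-containing DMEM and AdvDMEM/F12 supplemented with the growth factors EGF, HGF, FGF10 and RSPO3, with gastrin and nicotinamide, and with N-acetylcysteine, N2 and B27. Where the shared gel is set against separate cultures, the 3 libraries of HSC alone and the 3 of ICO alone in Matrigel at day 7 were used. The labels give no strain, age or sex, no organoid line and no sorting gate. They also leave unsaid whether replicates are different mice or cultures, and the p-values therefore reflect variation among these libraries, possibly technical.

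HSC are the pericytes of the liver sinusoid. They store retinyl esters and, once activated, become contractile cells that secrete collagen. Cholangiocytes are the polarised epithelial cells that line bile ducts, modify bile by transport of ions and water, and can grow as organoids in a basement membrane gel. In the portal tract the epithelium and the mesenchyme share a basement membrane to which both contribute, and each side makes ligands for receptors that the other carries.

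Bulk RNA was sequenced after Smart-seq2 amplification. Levels are CPM, counts scaled to a common library size, and are given for replicates 1, 2 and 3 in that order. They are compared within a gene, not between genes. Total counts in the 6 libraries ranged from 6907479 to 19473385, and 19394 to 22269 genes had at least 1 count. Cholangiocyte transcripts were present in the HSC libraries. Over 14 cholangiocyte genes of at least 100 CPM in organoids that were below 5 CPM in HSC at day 0 and on plastic, the median level in co-cultured HSC replicates 1, 2 and 3 was 28.6%, 14.9% and 41.9% of the co-cultured organoid mean; this median is called the organoid share below. Outside the co-culture the reference was the mean of ICO alone. Against that mean the share was 35.0%, 12.8% and 4.12% in HSC alone in Matrigel, and at most 0.26% at day 0 and on plastic. The low values at day 0 and on plastic follow from the choice of genes. The stellate share is the median over 10 stellate genes of at least 100 CPM in HSC, relative to the co-cultured HSC mean. It was 0.76%, 0.41% and 0.75% in the co-cultured ICO libraries. Unlike the 14 genes, these 10 were not filtered on their level in the other population, and they include Ecm1 and Steap4. The highest of the 10 stood at 96.1%, 106% and 92.0%. In bulk samples fewer cells of a type and less RNA per cell cannot be told apart, and how cholangiocyte transcripts came to be in the HSC libraries was not tested.

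The libraries carried the markers of their labels. Of 20 stellate and pericyte markers tested, 17 were called higher in HSC and none in ICO. Dcn (ENSMUSG00000019929), a small collagen-binding proteoglycan, had 4408, 6299 and 3857 CPM in HSC and 7.55, 10.4 and 17 CPM in ICO. Lrat, which esterifies retinol for storage, had 519.6, 1018 and 526 CPM in HSC and 1.6, 1.31 and 2.6 CPM in ICO. Both genes were more than 100 times as high in each HSC library as in any ICO library. Ecm1, Steap4 and Vipr1 from the same list did not pass the threshold; Ecm1 and Steap4 had 308 ± 49.3 against 302 ± 22.4 CPM and 219 ± 53 against 178 ± 9.15 CPM (mean ± SD, n = 3). Of 16 activation and contractility genes, 15 were higher in HSC; Acta2, smooth muscle actin, had 696, 734 and 469 CPM in HSC and 1.66, 2.56 and 4.05 CPM in ICO. The exception was Spp1, osteopontin, which bile duct epithelium also makes. Macrophage markers were low: 11 of 15 were higher in HSC, their sum over the list was 142 to 223 CPM in HSC and 28.3 to 32.3 CPM in ICO, and Adgre1, the F4/80 antigen, had 3.46, 2.07 and 3.84 CPM in HSC and no count in ICO. Of 11 hepatocyte markers 6 were higher in HSC, among them Ahsg with 18.1, 23.1 and 23.7 CPM in HSC and no count in ICO, while the list summed to 68.7 to 151 CPM in HSC and 119 to 175 CPM in ICO. Of 10 portal fibroblast and mesothelial markers 6 were higher in HSC, among them Wt1 at 79 ± 19.5 against 0.371 ± 0.13 CPM, and 1 in ICO, Entpd2 at 12.8 ± 5.91 against 35.5 ± 2.47 CPM. Of 7 endothelial markers 4 were higher in HSC, where the list summed to 49.8 to 69.0 CPM, against 18.4 to 20.9 CPM in ICO.

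Epithelial markers were higher in every ICO library in 29 of 30 cases, beside 27% of all genes tested. Yet 9 of the 30 passed the test, beside 15.6% of all genes called higher in ICO. Krt19, a keratin of bile ducts, had 509, 224 and 689 CPM in HSC and 1552, 1982 and 1577 CPM in ICO, a log2 difference (HSC minus ICO) of -1.80 ± 0.89 with an edgeR adjusted p of 0.136. Epcam, an adhesion molecule of epithelia, had 378, 207 and 566 CPM in HSC and 1435, 1338 and 1276 CPM in ICO (-1.77 ± 0.65, adjusted p = 0.0561). Every ICO library was above every HSC library for both genes, and the HSC libraries followed the order of their organoid shares, of which Epcam is one of the defining genes. Among the 9 called markers were Cdh1, the epithelial cadherin (-1.73 ± 0.58, adjusted p = 0.0407), and Cldn4, a tight junction claudin (-2.02 ± 0.56, adjusted p = 0.0187). When the organoid share times the organoid profile was subtracted from each HSC library, 23 of the 30 markers were called higher in ICO and the median log2 difference of the list went from -1.75 to -5.57. All 14 genes that set the share are in this list, so the shift follows from the subtraction and supports nothing further. The folds of organoid genes given below are those of the HSC libraries as deposited, organoid transcripts included. Of the 12 fits without 1 library, 9 lost the call of Cdh1 and 2 that of Cldn4 (highest adjusted p = 0.133 and 0.0729, without HSC replicate 2).

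The sequence upstream of these epithelial genes is shown because members of the list shared a motif there. The motif was the E-box CACCTG or its reverse complement CAGGTG, searched in the 250 bases before each start in the RefSeq promoter table (GRCm38.p6). It was picked after its counts had been seen, with the AP-1 motif below, from 9 motifs counted. It was found upstream of 12 of the 17 cholangiocyte markers present in that table, 70.6%, and upstream of 19.4% of 27025 genes. Other lists ranged widely: 44% of integrin and adhesion genes, 42.9% of mucin genes, 40% of duct transport genes and 35.3% of hepatocyte markers held it, and so did 1 of 16 stellate markers and 0 of 8 fibrillar collagen genes. A match is a description of letters, and no factor's binding was measured. The stretches below are written in the direction of the gene, with each match in capitals.
Krt8: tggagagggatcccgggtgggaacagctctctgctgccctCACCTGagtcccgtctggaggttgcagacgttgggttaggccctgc
Krt7: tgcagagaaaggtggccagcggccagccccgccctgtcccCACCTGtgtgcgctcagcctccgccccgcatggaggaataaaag
Epcam: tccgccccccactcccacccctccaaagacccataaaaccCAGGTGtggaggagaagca
Cldn4: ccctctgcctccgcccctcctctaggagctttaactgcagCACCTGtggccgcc
Cldn7: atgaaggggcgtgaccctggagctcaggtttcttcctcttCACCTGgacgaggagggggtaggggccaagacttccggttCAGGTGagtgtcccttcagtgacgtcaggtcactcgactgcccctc
Elf3: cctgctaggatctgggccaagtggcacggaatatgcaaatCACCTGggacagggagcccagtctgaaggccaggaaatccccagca
They lie at chr15:102004408-102004493 (- strand) for Krt8, chr15:101412319-101412402 (+ strand) for Krt7, chr17:87635920-87635978 (+ strand) for Epcam, chr5:134946935-134946988 (- strand) for Cldn4, chr11:69965284-69965409 (+ strand) for Cldn7 and chr1:135258567-135258652 (- strand) for Elf3, all within 250 bases before the start of the gene. Krt8, an epithelial keratin, had 1334, 606 and 1979.6 CPM in HSC and 4425, 5158 and 4952 CPM in ICO, and Elf3, an epithelial transcription factor, had 182, 90.7 and 293 CPM and 678, 645 and 639 CPM. Transcripts of factors known to bind this motif were read as well, chosen after their values were seen. Zeb2, a zinc-finger repressor of epithelial genes, had 87.9, 98.7 and 69.1 CPM in HSC and 2.58, 1.66 and 1.4 CPM in ICO (5.55 ± 0.27, adjusted p = 1.27e-08). Snai1 had 26.2, 72.5 and 51.8 CPM and 0.458, 1.11 and 0.799 CPM (6.05 ± 0.51, adjusted p = 4.19e-06). Both were higher in every HSC library, and whether they act on these genes was not tested.

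Among 16233 genes, 6436 differed (39.6%): 3901 in favour of HSC (24%) and 2535 in favour of ICO (15.6%). The calls on the HSC side were larger: their median log2 difference was 1.79, against 0.91 in size on the ICO side. A difference of over 4-fold was reached by 1825 genes on the HSC side (11.2%) and by 201 on the ICO side (1.24%). These sizes include the organoid share of the HSC libraries (28.6%, 14.9% and 41.9%), which lowers the fold of an organoid gene. The stellate share of the ICO libraries was 0.76%, 0.41% and 0.75%. By these medians, over genes chosen in different ways, the 2 sides are not alike in this limit. Its part in the unequal sizes was not tested. Libraries of the 2 populations did not overlap for 4422 genes higher in HSC (27.2%) and 4386 higher in ICO (27%), so the sides were close to equal by that measure. The ICO count fell to 1477 without HSC replicate 2, the library with the lowest organoid share. Of 193 called genes named here, 50 lost their call when at least 1 of the 12 fitted libraries was left out, 45 of them on the ICO side. The fits that ended a call ranged from 1 of 12, as for Cutal, to 10 of 12 for Col4a3. Each such gene is given with the highest of these adjusted p where it is first named. The library named with it is often not the only one. The median log2 difference over all genes tested was 0.05. Of the 4 classes of gene lists, matrix leaned furthest to HSC, with 125 of 178 genes tested higher in HSC, 18 in ICO and a median log2 difference of 3.44. Ligands had 66 and 37 of 151 (median 0.24), receptors 78 and 41 of 183 (median 0.13), and metabolism 64 and 74 of 302 (median -0.14).

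**Figure D1:**
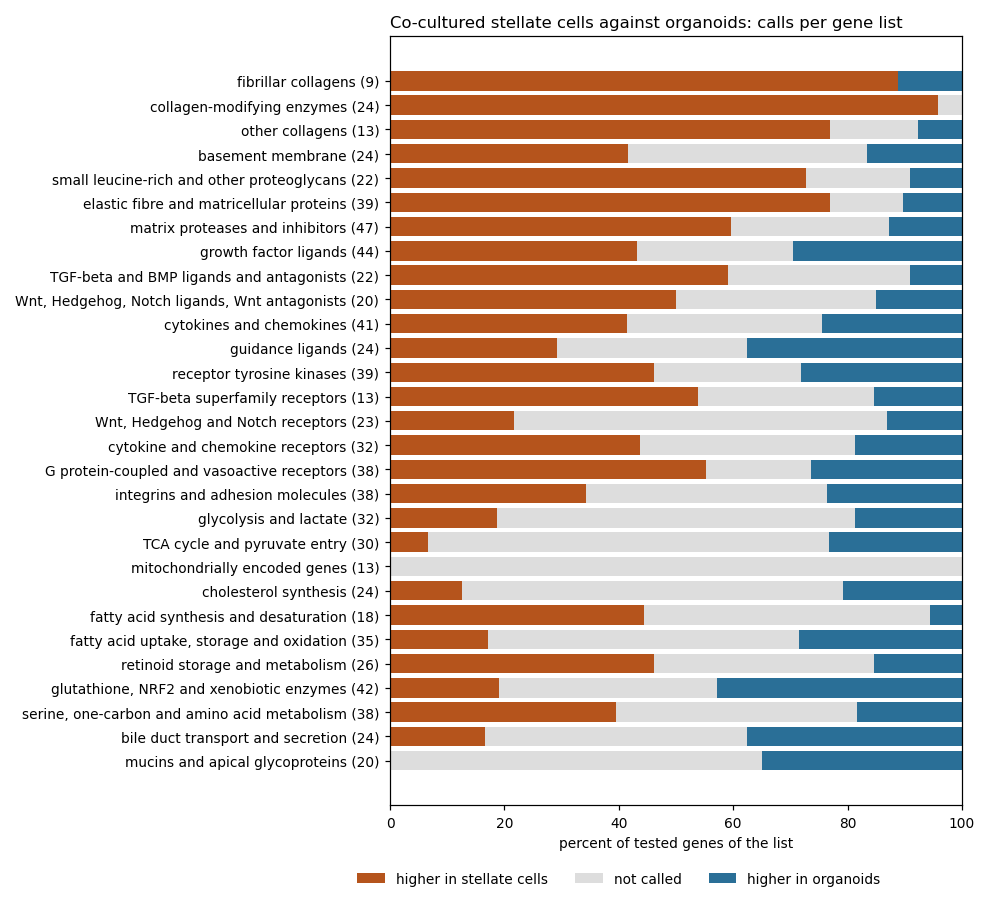
Share of the tested genes of each list (number in brackets) called higher in co-cultured HSC, called higher in co-cultured ICO, or not called, at an adjusted p of 0.05. The fibrillar collagen list has 8 of 9 genes on the HSC side, the mucin list has 7 of 20 genes on the ICO side and none on the HSC side, and no mitochondrially encoded gene was called.

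Interstitial collagen genes were almost all on the HSC side. Of 9 fibrillar collagen genes 8 were higher in HSC and 1 in ICO. Summed over the list, HSC replicates 1, 2 and 3 had 14234, 24672 and 13589 CPM, and the ICO libraries 96.1, 94.6 and 143 CPM. Col1a1 (ENSMUSG00000001506), a chain of type I collagen, had 2534, 4329 and 2633 CPM in HSC and 10.4, 11.5 and 23 CPM in ICO (7.77 ± 0.46, adjusted p = 2.65e-07). Col3a1, the type III chain, had 8352, 15872 and 8240.4 CPM and 22.1, 19.6 and 48.4 CPM. In ICO these levels were within the stellate share given above. The exception was Col27a1, a fibrillar collagen of cartilage, with 22, 17.8 and 34.4 CPM in HSC and 54.5, 54.8 and 47.1 CPM in ICO (-1.03 ± 0.23, adjusted p = 0.00318). All 3 ICO libraries were above the HSC libraries.

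The enzymes that build and cross-link collagen were on the same side. Of 24 such genes 23 were higher in HSC, with a median log2 difference of 4.2. Lox, the lysyl oxidase that starts cross-linking, had 248, 509 and 332 CPM in HSC and 1.09, 1.24 and 2.3 CPM in ICO (7.89 ± 0.70, adjusted p = 0.000104). P4ha1, a subunit of collagen prolyl hydroxylase, differed by 1.92 ± 0.14 (adjusted p = 2.81e-07). P4ha2, the alternative subunit of the same enzyme, was not called, with 336, 257 and 307 CPM in HSC and 389, 352 and 339 CPM in ICO. The ICO libraries were the higher ones for P4ha2, by a small margin. Among 13 other collagens 10 were higher in HSC, including Col6a1 (5.68 ± 0.35) and Col6a2 (7.55 ± 0.30) of the microfibrillar collagen VI. Col18a1, the basement membrane collagen that yields endostatin, went the other way, with 52, 40.9 and 75.5 CPM in HSC and 154, 169 and 147 CPM in ICO (-1.43 ± 0.44, adjusted p = 0.0283). Leaving out 1 library ended the call of Col18a1 (adjusted p = 0.107 without HSC replicate 2).

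Basement membrane genes were divided chain by chain. HSC had the higher level of 10 of 24 genes and ICO of 4, and 10 were not called. On the HSC side stood some chains of the collagen IV network and the nidogens that link it to laminin. Col4a1 had 795, 1263 and 818 CPM in HSC and 119, 96.7 and 103 CPM in ICO (3.22 ± 0.18, adjusted p = 4.43e-08), and Nid1 had 304, 440.4 and 292 CPM and 3.2, 2.77 and 1.8 CPM. The laminin chains Lamb1 (3.30 ± 0.20) and Lama2 were also higher in HSC; Lama2 had 8.45, 5.28 and 4.35 CPM in HSC and no count in ICO, at least 95.6-fold higher. On the ICO side were Lama3, a chain of an epithelial laminin (19.7, 12.7 and 23.4 CPM in HSC and 81.8, 58.8 and 67.7 CPM in ICO), and Lamb2, a laminin beta chain (82.2, 75.4 and 103 and 162, 137 and 161 CPM). Agrn, a heparan sulfate proteoglycan, had 179, 118 and 212 CPM in HSC and 443, 384 and 421 CPM in ICO (-1.25 ± 0.28, adjusted p = 0.00431). Col4a3 was low in both (0.464 ± 0.382 and 1.44 ± 0.0581 CPM) and called higher in ICO. Counted without regard to the test, 10 of the 24 genes were higher in every HSC library and 11 in every ICO library. Over all genes tested these shares were 27.2% and 27%. Hspg2, perlecan, was level between them at 62 ± 3.22 and 61.6 ± 7.34 CPM. The call of Col4a3 was lost in 10 of the 12 fits without 1 library (highest adjusted p = 0.118, without HSC replicate 3).

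Proteoglycans and matricellular proteins followed the collagens, with named exceptions. Of 22 proteoglycan genes 16 were higher in HSC and 2 in ICO. Bgn, biglycan, had 2180.0, 2937 and 2029.7 CPM in HSC and 5.44, 5.39 and 13.4 CPM in ICO, and Lum, lumican, differed by 8.44 ± 1.12. Sdc4, a transmembrane syndecan of epithelia and other adherent cells, had 438, 778 and 1134 CPM in HSC and 1822, 2191 and 1819 CPM in ICO (-1.27 ± 0.26, adjusted p = 0.00223), while its relative Sdc2 was higher in HSC (2.39 ± 0.16, adjusted p = 1.71e-07). The 2 syndecans thus stood on opposite sides. After the organoid share was subtracted, the call of Sdc4 was lost (adjusted p = 0.228), with a larger difference and a larger SE (-2.38 ± 1.53). Gpc3, a glypican, was the other gene higher in ICO (-1.65 ± 0.45). Calls that ended when 1 library was left out were those of Gpc3 (adjusted p = 0.0565 without HSC replicate 2).

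Of 39 elastic fibre and matricellular genes 30 were higher in HSC and 4 in ICO. Sparc, a collagen-binding secreted protein, had 4562, 6121 and 3589 CPM in HSC and 10.3, 12.6 and 28.2 CPM in ICO. Fn1, fibronectin, was abundant in both, with 3502, 3521 and 2922 CPM in HSC and 2239, 1925 and 2054 CPM in ICO, and the difference of 0.73 ± 0.25 passed the threshold narrowly (adjusted p = 0.0351). On the ICO side were the YAP target genes Ccn1 and Ccn2. Ccn2, connective tissue growth factor, had 625, 539 and 991 CPM in HSC and 1764, 1852 and 1632 CPM in ICO (-1.24 ± 0.40, adjusted p = 0.0292), and Ccn1 differed by -0.68 ± 0.23 (adjusted p = 0.0291). After the subtraction the calls of Ccn1, Ccn2 and Fn1 were lost (adjusted p = 0.453, 0.228 and 0.602). Their fitted differences did not shrink, at -1.19 ± 1.23, -2.48 ± 1.59 and 0.86 ± 1.26, while each SE grew. Ltbp3, a carrier of latent TGF-beta (-0.46 ± 0.12), and the low Ccn5 were the others. Spp1 was not called, with 5014, 5176 and 5374 CPM in HSC and 6792, 9451 and 6513 CPM in ICO. Its HSC levels were 66.1%, 68.2% and 70.9% of the organoid mean, above the organoid share in each library. Fbln2, fibulin-2, a marker of portal fibroblasts, was level at 571 ± 54.3 and 576 ± 54 CPM. The call was lost without 1 library for Ccn1, Ccn2 and Ccn5 (adjusted p = 0.0875, 0.112 and 0.0976 without HSC replicate 2) and Fn1 (adjusted p = 0.106 without ICO replicate 2). For these 4 genes in that order, 4, 5, 2 and 8 of the 12 such fits ended the call.

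**Figure D2:**
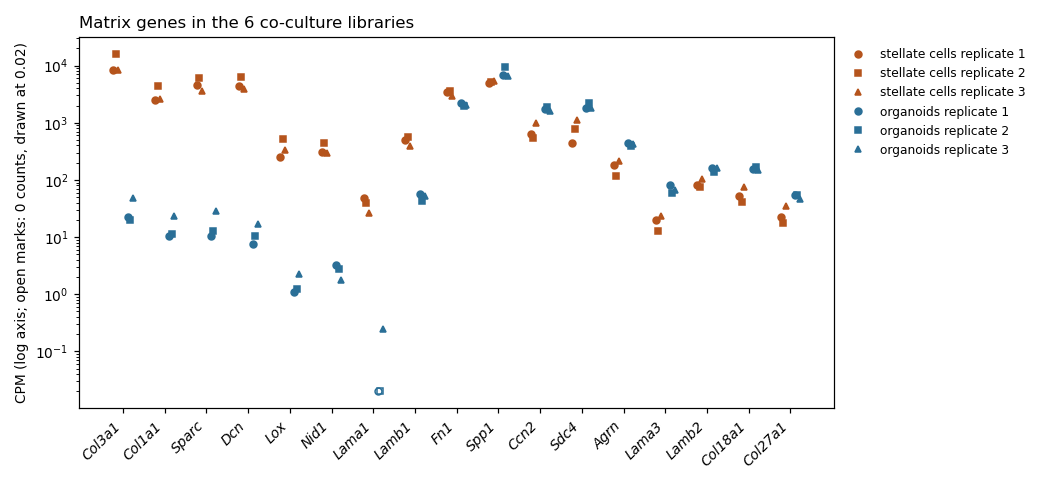
CPM (log axis) of 17 matrix genes in each of the 6 co-culture libraries; colour gives the population, shape the replicate, and open marks are libraries without a count. Every HSC library lies above every ICO library from Col3a1 to Lamb1, and below from Ccn2 to Col27a1.

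Protease and inhibitor genes were called on both sides. HSC had the higher level of 28 of 47 genes and ICO of 6. The gelatinase Mmp2, the membrane-bound collagenase Mmp14 and the inhibitor Timp1 were on the HSC side. Mmp14 had 422, 575 and 415 CPM in HSC and 155, 161 and 183 CPM in ICO (1.55 ± 0.15, adjusted p = 4.28e-06), and Timp1 had 601, 902 and 680.3 CPM and 17.5, 21.1 and 20.4 CPM (5.25 ± 0.40, adjusted p = 2.69e-06). Plat, tissue plasminogen activator, differed by 1.42 ± 0.37 and its inhibitor Serpine2 by 4.05 ± 0.64. The 6 on the ICO side included the serine proteases Hpn, hepsin (-1.55 ± 0.46), and Prss22 (-2.13 ± 0.70), and Spint2, an inhibitor of hepsin and matriptase (165, 119 and 332 CPM in HSC and 876, 792 and 709.5 CPM in ICO). In all HSC libraries Hpn, Prss22 and Spint2 were within 1.5 times the organoid share; Spint2 was at 20.8%, 15% and 41.9% of the organoid mean. Mmp7, matrilysin, a protease of glandular epithelium, had 366, 145 and 445 CPM in HSC and 1522, 1746 and 1083 CPM in ICO but missed the threshold (adjusted p = 0.115). Leaving out 1 library ended the call of Hpn, Plat, Prss22 and Spint2 (adjusted p = 0.0828, 0.0549, 0.127 and 0.0981 without HSC replicate 2). In that order, 4, 1, 8 and 5 of the 12 such fits ended the call.

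The promoters of 3 metalloproteinase genes and of the cytokine gene Il11, all higher in HSC, are shown because each held an AP-1 motif (TGACTCA or its reverse complement TGAGTCA) within 250 bases before the start. The motif was present upstream of 5 of 29 protease and inhibitor genes (17.2%) and 7 of 32 cytokine and chemokine genes (21.9%) in the RefSeq table, and of 5.16% of 27025 genes. It was also found upstream of 23.5% of hepatocyte markers and 17.4% of retinoid genes. As before, capitals mark the match.
Mmp3: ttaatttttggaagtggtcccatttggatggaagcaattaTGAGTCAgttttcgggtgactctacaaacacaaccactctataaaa
Mmp10: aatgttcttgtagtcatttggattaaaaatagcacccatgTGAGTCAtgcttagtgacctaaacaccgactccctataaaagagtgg
Mmp13: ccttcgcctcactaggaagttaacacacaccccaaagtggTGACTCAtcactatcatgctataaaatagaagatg
Il11: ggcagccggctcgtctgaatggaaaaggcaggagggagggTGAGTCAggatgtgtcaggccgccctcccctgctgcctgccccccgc
They lie at chr9:7445736-7445821 (+ strand), chr9:7502239-7502325 (+ strand), chr9:7272439-7272513 (+ strand) and chr7:4778193-4778279 (- strand) (GRCm38.p6). Mmp3, stromelysin-1, had 77.6, 181 and 90.8 CPM in HSC and 0, 0 and 0.449 CPM in ICO. Mmp10 and Mmp13 were lower in level, at 6.02, 13.6 and 6.53 CPM and 0.64, 1.24 and 2.3 CPM in HSC against at most 0.30 CPM in any ICO library. These genes and the AP-1 subunits below were chosen after their values were seen. The AP-1 subunit Fos had 1321, 1062 and 1678 CPM in HSC and 3498, 3532 and 3112 CPM in ICO and was higher in ICO (-1.27 ± 0.18, adjusted p = 0.000104), whereas Fosl2 was higher in HSC (1.20 ± 0.15, adjusted p = 3.62e-05). Both subunits were transcribed in both populations. The call of Mmp10 was lost in 4 of the 12 fits without 1 library (highest adjusted p = 0.0658, without ICO replicate 1).

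Growth factor genes were split between the populations, 19 of 44 higher in HSC and 13 in ICO. HSC held Hgf and Fgf10, whose proteins the culture medium also supplied. Hgf, hepatocyte growth factor, had 378, 603 and 378 CPM in HSC and 0, 0.484 and 1.25 CPM in ICO (9.58 ± 0.95, adjusted p = 4.96e-05). Fgf10 was low, with 2.18, 2.69 and 1.15 CPM in HSC and no count in ICO, at least 35.2-fold higher. Fgf2, Fgf7, Vegfc and Pros1 were on the same side, with log2 differences of 5.72, 5.54, 8.57 and 5.61. The ICO side held all 4 PDGF genes. Pdgfd had 23.2, 9.67 and 38.5 CPM in HSC and 93.9, 91.3 and 98.5 CPM in ICO (-1.95 ± 0.43, adjusted p = 0.00543), and Pdgfc had 18.7, 7.65 and 21.8 CPM and 53.6, 50.7 and 65.3 CPM (-1.78 ± 0.44, adjusted p = 0.0085). In the HSC libraries Pdgfd was at 24.5%, 10.2% and 40.7% of the organoid mean, which is at or below the organoid share of each library. Pdgfa was nearer to level, with 36.1, 22.1 and 33.4 CPM in HSC and 50.2, 50.3 and 43.1 CPM in ICO. Calls that ended when 1 library was left out were those of Pdgfa (adjusted p = 0.108 without HSC replicate 2).

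Other organoid-side growth factors were Kitl, the ligand of KIT (28.8, 19.9 and 55.6 CPM in HSC and 103, 107 and 127 CPM in ICO), and Gas6, the vitamin K-dependent ligand of the TAM receptors (224, 148 and 398 CPM and 749.9, 714 and 843 CPM; -1.54 ± 0.30, adjusted p = 0.00162). The EGF family was divided. Ereg, epiregulin, had 153, 231 and 151 CPM in HSC and 18.2, 18.3 and 15.8 CPM in ICO (3.40 ± 0.35, adjusted p = 2.78e-05). Hbegf had 159.5, 93.2 and 209 CPM and 534, 495 and 455 CPM (-1.64 ± 0.50, adjusted p = 0.0273), and Tgfa and Btc were likewise higher in ICO (-1.07 and -0.70). Ereg was thus higher in HSC, while Tgfa, Btc and Hbegf were higher in organoids. Of the 37 ligand genes called higher in ICO, 16 stood in all 3 HSC libraries at no more than 1.5 times the organoid share, Hbegf, Kitl, Gas6, Pdgfc and Pdgfd among them. Tgfa did not: its HSC levels were 36.2%, 44.8% and 56.8% of the organoid mean. The call was lost without 1 library for Btc and Hbegf (adjusted p = 0.0775 and 0.0975 without HSC replicate 2).

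Of 22 TGF-beta and BMP family ligands and antagonists 13 were higher in HSC and 2 in ICO. Fstl1, a follistatin-like glycoprotein, had 1477, 1819 and 1259 CPM in HSC and 17.5, 25.5 and 27.3 CPM in ICO (6.06 ± 0.24, adjusted p = 2.51e-09). Inhba, the activin A subunit, had 233, 289 and 218 CPM and 8.64, 13.8 and 10.04 CPM (4.56 ± 0.36, adjusted p = 2.95e-06), and Tgfb1 was low but higher in HSC (6.6 ± 3.06 against 1.55 ± 0.397 CPM). Bmp4 (-1.25 ± 0.22) and Gdf15, a stress-induced family member (-1.28 ± 0.27), were the organoid-side genes. Tgfb3 was not called, with 137, 188 and 143 CPM in HSC and 112, 102 and 114 CPM in ICO.

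Wnt pathway ligands and antagonists gave 10 HSC-side and 3 ICO-side genes of 20 tested. Rspo3, the LGR receptor ligand that the medium also contained, had 70.5, 142 and 90.9 CPM in HSC and 0.229, 0.277 and 0.449 CPM in ICO (8.29 ± 0.75, adjusted p = 2.45e-05). The secreted antagonists Frzb (8.54 ± 0.46) and Dkk3 (8.90 ± 0.68) were on the same side, as was Wnt4 (3.77 ± 0.25). Wnt10a (-1.98 ± 0.61) and Wnt5b (-1.54 ± 0.47) were higher in ICO, together with the Notch ligand Jag1, which had 41.5, 33.2 and 49 CPM in HSC and 59.98, 54.1 and 68.7 CPM in ICO (-0.52 ± 0.17, adjusted p = 0.0269). Wnt7b, another Wnt ligand, had 118, 93.4 and 235 CPM in HSC and 584, 622 and 554 CPM in ICO. It missed the threshold (adjusted p = 0.12), and its HSC levels were 20.2%, 15.9% and 40.1% of the organoid mean. Leaving out 1 library ended the call of Jag1, Wnt10a and Wnt5b (adjusted p = 0.112, 0.103 and 0.0796 without HSC replicate 2).

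Cytokine and chemokine genes were called on both sides. The HSC side held 17 of 41 genes and the ICO side 10. Cxcl12, the ligand of CXCR4 and ACKR3, had 545, 1030.3 and 559.8 CPM in HSC and 3.66, 0.76 and 3.55 CPM in ICO (8.08 ± 0.96, adjusted p = 0.00016). Cxcl14 differed by 7.99 ± 0.67, and Il11, an IL-6 family cytokine, had 108, 247 and 190.0 CPM in HSC and 1.6, 1.38 and 2.15 CPM in ICO (6.75 ± 0.47, adjusted p = 1.46e-06). On the ICO side stood neutrophil-attracting chemokines: Cxcl5 had 38, 59.1 and 121 CPM in HSC and 331, 388 and 353 CPM in ICO (-2.26 ± 0.75, adjusted p = 0.0382), and Cxcl1 had 99, 154 and 148 CPM and 260.1, 257 and 213 CPM (-0.82 ± 0.26, adjusted p = 0.0273). Il1rn, the IL-1 receptor antagonist, and Cxcl16, a transmembrane chemokine, were also higher there (-1.57 and -1.48). Ccl2, the monocyte chemoattractant, was level at 74.4 ± 4.22 and 73.3 ± 8.06 CPM. Among 24 guidance ligands 7 were higher in HSC, among them Slit3 (8.34 ± 0.59), and 9 in ICO, among them Efna1 (-1.85 ± 0.46). Of the 12 fits without 1 library, 3 lost the call of Cxcl1, 9 that of Cxcl5 and 7 that of Il1rn. The highest adjusted p was 0.101 for Cxcl1 (without HSC replicate 1), and 0.125 and 0.122 for Cxcl5 and Il1rn (without HSC replicate 2).

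Receptor tyrosine kinases gave 18 HSC-side and 11 ICO-side genes of 39. Both PDGF receptors were on the HSC side: Pdgfra had 214, 253 and 162 CPM in HSC and 0.687, 0.0691 and 0.699 CPM in ICO (8.71 ± 0.57, adjusted p = 1.59e-06), and Pdgfrb had 234, 283 and 145 CPM and 3.32, 0.968 and 2.55 CPM. Axl, the TAM receptor, had 273, 359.8 and 226 CPM in HSC and 6.12, 7.81 and 10.04 CPM in ICO (5.21 ± 0.36, adjusted p = 9.91e-07). The FGF receptors divided. Fgfr1 (4.90 ± 0.49) and Fgfr2 were higher in HSC, Fgfr2 with 356, 524 and 401 CPM against 111, 115 and 174 CPM in ICO. Fgfr3 was higher in ICO, with 19.8, 15.6 and 43.4 CPM in HSC and 95.5, 77.2 and 98.5 CPM in ICO (-1.74 ± 0.58, adjusted p = 0.04). The collagen receptors divided in the same way: Ddr2 was higher in HSC (7.25 ± 0.59) and Ddr1, its epithelial relative, in ICO (-1.02 ± 0.20). Egfr was higher in HSC by a small step (118, 141 and 105 CPM against 69.5, 57.3 and 76.5 CPM; 0.89 ± 0.14, adjusted p = 0.000283), and Erbb2 higher in ICO (-0.96 ± 0.23). Met, the HGF receptor, was not called, with 10.9, 4.14 and 12.2 CPM in HSC and 21.3, 20.4 and 18 CPM in ICO (adjusted p = 0.181). Its values did not overlap, the ICO libraries being higher. Calls that ended when 1 library was left out were those of Fgfr3 (adjusted p = 0.136 without HSC replicate 2).

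TGF-beta receptors leaned to HSC, 7 of 13 against 2 in ICO. Eng, the endoglin co-receptor, had 420.0, 621 and 404 CPM in HSC and 1.26, 1.73 and 3.3 CPM in ICO. Tgfbr1 (1.31 ± 0.14) and Tgfbr2 (1.24 ± 0.15) were higher in HSC, and the activin receptors Acvr1b (-1.18 ± 0.31) and Acvr2b (-1.17 ± 0.40) in ICO. Of 23 Wnt, Hedgehog and Notch receptors 15 were not called. Fzd1 was higher in HSC (2.37 ± 0.21), and Lgr4, a receptor of R-spondins, in ICO, with 13.7, 17.4 and 37.4 CPM in HSC and 64.5, 57.2 and 63.8 CPM in ICO (-1.39 ± 0.34, adjusted p = 0.00794). Lgr5 missed the threshold at 85.9, 18.1 and 65.8 CPM in HSC and 157, 119.9 and 146 CPM in ICO. Notch2 was higher in ICO (-0.52 ± 0.16). The call was lost without 1 library for Acvr2b (adjusted p = 0.113 without ICO replicate 1) and Notch2 (adjusted p = 0.0797 without HSC replicate 2).

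Among 32 cytokine receptors 14 were higher in HSC and 6 in ICO. Il6st, the shared signalling chain of the IL-6 family, had 409.6, 581 and 351 CPM in HSC and 106, 84.8 and 109.8 CPM in ICO (2.20 ± 0.18, adjusted p = 1.21e-06), and Osmr (1.65 ± 0.23) and Il1r1 (2.77 ± 0.24) were on the same side. Ifngr1, a chain of the interferon gamma receptor, had 158, 143 and 246 CPM in HSC and 510.0, 553 and 542 CPM in ICO (-1.51 ± 0.22, adjusted p = 0.000169). Of 38 G protein-coupled receptors and partners 21 were higher in HSC and 10 in ICO. Ednrb, an endothelin receptor, had 67.7, 91.6 and 55.7 CPM in HSC and no count in ICO, at least 1284-fold higher, taking 3 counts in the whole group as the floor. Agtr1a, the angiotensin II receptor, had 90.6, 137 and 96.7 CPM in HSC and 0.229, 0.622 and 0.949 CPM in ICO. P2ry2, a nucleotide receptor, had 52.4, 55.4 and 85.1 CPM in HSC and 161, 137 and 149.8 CPM in ICO (-1.17 ± 0.31, adjusted p = 0.0124). Leaving out 1 library ended the call of P2ry2 (adjusted p = 0.0589 without HSC replicate 2).

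Of 38 integrins and adhesion molecules 13 were higher in HSC and 9 in ICO. Itga5, the fibronectin receptor chain, had 381, 602 and 366 CPM in HSC and 14.6, 9.96 and 11.8 CPM in ICO (5.26 ± 0.28, adjusted p = 5.01e-08). Itga1 and Itga9 were on the same side (4.49 and 8.19). Cd44, the hyaluronan receptor, had 432, 298 and 643 CPM in HSC and 1614, 1701 and 1625 CPM in ICO (-1.80 ± 0.46, adjusted p = 0.0111), and F11r, a tight junction molecule, differed by -1.32 ± 0.37. In the HSC libraries Cd44 stood at 26.3%, 18.1% and 39.1% of the organoid mean, close to the organoid shares. Of the 41 receptor and adhesion genes called higher in ICO, 17 were in all 3 HSC libraries at no more than 1.5 times the organoid share. The call of F11r was lost in 2 of the 12 fits without 1 library (highest adjusted p = 0.0568, without HSC replicate 2).

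**Figure D3:**
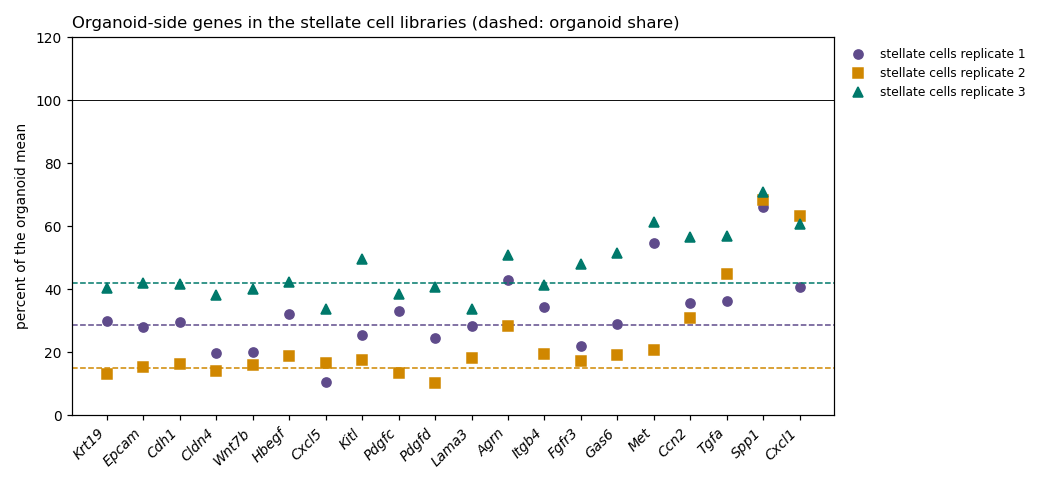
Level of 20 genes of the organoid side in each HSC library, as percent of the co-cultured organoid mean, with the organoid share of each library as a dashed line. Epcam, Cdh1 and Cldn4 were among the 14 genes that define the share; Pdgfd lies at or below the lines, whereas Spp1 stands at 66.1% to 70.9% in every library.

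Ligands and receptors were read together over 96 listed pairs. Both genes were tested in 86 pairs and both were called in 40. In 19 of the 40 both genes were higher in HSC, in 12 the ligand was higher in ICO and the receptor in HSC, in 6 the ligand was higher in HSC and the receptor in ICO, and in 3 both were higher in ICO. Of all listed ligand genes tested 43.7% were called higher in HSC and 24.5% in ICO, and of receptor genes 42.6% and 22.4%. Genes recur among the pairs. The 4 counts were not tested against what these separate shares would give, so they describe the listed pairs only. Organoid ligands with stellate receptors comprised Pdgfa and Pdgfc with Pdgfra, Pdgfb and Pdgfd with Pdgfrb, Gas6 with Axl, Tyro3 and Mertk, and Tgfa, Btc and Hbegf with Egfr. Tnf with Tnfrsf1a and Efnb2 with Ephb4 completed the 12. Of these, Tnf was low, at 2.48 ± 1.38 CPM in HSC and 6.54 ± 2.51 CPM in ICO. Stellate ligands with organoid receptors comprised Rspo3 with Lgr4, Cxcl12 with Ackr3, Vegfc with Flt4, Mst1 with Mst1r, Efna5 with Epha4, and Col1a1 with Ddr1. Ackr3, the scavenging receptor of CXCL12, had 5.5, 10.4 and 13.8 CPM in HSC and 42.1, 34.1 and 41.4 CPM in ICO (-1.92 ± 0.24, adjusted p = 4.86e-05). Mst1 rested on 64 counts in HSC and 2 in ICO, a ratio of 38.9 (95% interval 10.8 to 321), an interval for counting error only. The pairs within the organoids were Jag1 with Notch2, Il18 with Il18r1, and Sema4d with Plxnb2. Transcript levels were measured, not secretion or binding. Calls that ended when 1 library was left out were those of Efna5, Efnb2 and Flt4 (adjusted p = 0.156, 0.0612 and 0.0668 without HSC replicate 2), Pdgfb (adjusted p = 0.0675 without HSC replicate 1) and Tnf (adjusted p = 0.147 without ICO replicate 1). Efna5 lost its call in 8 of the 12 such fits.

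**Figure D4:**
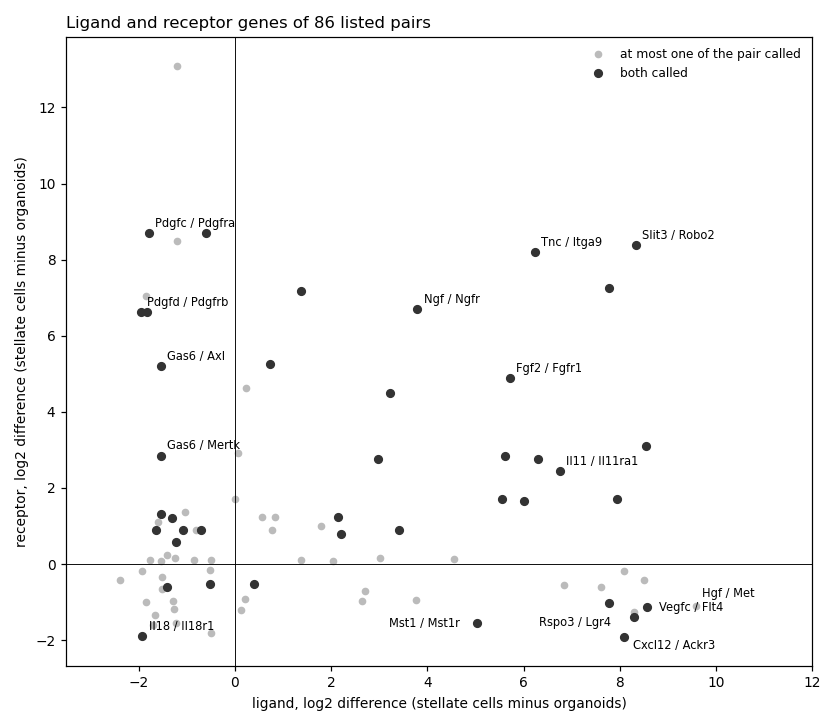
Log2 difference (HSC minus ICO) of the ligand gene against that of the receptor gene for 86 listed pairs, dark where both genes were called. The 12 called pairs of organoid ligands with stellate receptors lie at the upper left, with ligand differences no lower than -1.95 and receptor differences up to 8.71. The ligand differences include the organoid transcripts in the HSC libraries.

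Metabolic genes had a median difference near that of all genes, and 164 of 302 were not called. Glycolysis gave 6 genes on each side of 32 (18.8% each, beside 24% of all genes higher in HSC and 15.6% in ICO). Gapdh was level at 3265 ± 49.4 and 3374 ± 564 CPM and Pkm was close to level at 3123 ± 293 and 3549.6 ± 105 CPM, whereas isoenzymes divided: Aldoc, the brain-type aldolase, had 37.8, 29.4 and 76.5 CPM in HSC and 162, 172 and 148 CPM in ICO (-1.70 ± 0.34, adjusted p = 0.00292), and Eno2, neuron-type enolase, had 57.5, 74.2 and 50.8 CPM and 5.44, 5.53 and 4.2 CPM (3.64 ± 0.20, adjusted p = 3.86e-08). The glucose transporter Slc2a3 was higher in HSC (3.83 ± 0.46) and the kinase Hk2 in ICO (-0.67 ± 0.22). The TCA cycle gave 2 genes higher in HSC and 7 in ICO of 30 (6.67% and 23.3%), all by less than 2-fold, such as Ogdh (0.72 ± 0.13) and Idh2 (-0.62 ± 0.18). None of 13 mitochondrially encoded genes was called in edgeR, and 1 of them, mt-Nd3, had an unadjusted p under 0.05; DESeq2 called 1. The call was lost without 1 library for Hk2 (adjusted p = 0.12 without ICO replicate 1) and Idh2 (adjusted p = 0.0661 without HSC replicate 2).

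Lipid genes were called on both sides. Of 18 fatty acid synthesis genes 8 were higher in HSC and 1 in ICO. Scd1, the stearoyl-CoA desaturase, had 248, 395 and 240.2 CPM in HSC and 16.4, 9.13 and 8.89 CPM in ICO (4.73 ± 0.67, adjusted p = 0.000506), and Fads1 and Fads2, desaturases of polyunsaturated fatty acids, differed by 1.61 ± 0.14 and 1.27 ± 0.14. The elongase Elovl7 was the organoid-side gene (-1.58 ± 0.51). For uptake, storage and oxidation 6 and 10 of 35 genes were called (17.1% and 28.6%, beside 24% and 15.6% of all genes): Lpl, lipoprotein lipase, had 131, 218 and 129.7 CPM in HSC and 0.229, 0.76 and 2.1 CPM in ICO, whereas Acadm, medium-chain acyl-CoA dehydrogenase, was higher in ICO (-0.78 ± 0.20, adjusted p = 0.00681). Plin2, the coat protein of lipid droplets, was level at 172 ± 6.1 and 163 ± 10.3 CPM. Cholesterol synthesis gave 3 and 5 of 24 (12.5% and 20.8%, beside the same 24% and 15.6%), with the regulator Srebf2 higher in ICO (-0.37 ± 0.13). Leaving out 1 library ended the call of Elovl7 and Srebf2 (adjusted p = 0.099 and 0.127 without HSC replicate 2).

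Retinoid genes were mainly stellate. The HSC side held 12 of 26 genes and the ICO side 4. Aldh1a2, which makes retinoic acid, had 563, 830.2 and 498 CPM in HSC and 7.21, 6.08 and 9.59 CPM in ICO (6.41 ± 0.97, adjusted p = 0.000774). Replicate 2 of HSC was the highest library. The organoids held more of Rdh10, the retinol dehydrogenase that acts before it (108, 103 and 136 CPM in HSC and 249, 289 and 246 CPM in ICO; -1.13 ± 0.16, adjusted p = 0.000133), and of Rbp4, the plasma retinol carrier (-1.39 ± 0.22). The call of Rdh10 was lost after the subtraction (adjusted p = 0.119), with a larger difference and a larger SE (-2.22 ± 1.08).

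Detoxification leaned to the organoids, with 18 of 42 genes higher in ICO and 8 in HSC. Gsta4, a glutathione transferase for lipid aldehydes, had 169.7, 113 and 337 CPM in HSC and 829, 1005 and 792 CPM in ICO (-2.04 ± 0.53, adjusted p = 0.0131). Prdx1 (-0.61 ± 0.17), Gstp1 (-0.84 ± 0.18) and Sod1 (-0.86 ± 0.16) were on the same side. Sod2, the mitochondrial superoxide dismutase, went the other way, with 236, 365 and 229 CPM in HSC and 89.2, 111 and 106 CPM in ICO (1.48 ± 0.18, adjusted p = 2.53e-05), as did Hmox1 (1.87 ± 0.20) and Gpx8, a peroxidase of the endoplasmic reticulum (6.87 ± 0.36). The cytosolic and mitochondrial dismutases were therefore on opposite sides. Amino acid metabolism gave 15 genes higher in HSC and 7 in ICO of 38. Arg1, arginase, had 140.4, 269 and 95.9 CPM in HSC and 0.401, 3.32 and 3 CPM in ICO (6.28 ± 0.71, adjusted p = 0.000112), and Ass1, which makes the precursor of arginine, 174, 147 and 255 CPM and 464, 487 and 409 CPM (-1.19 ± 0.18, adjusted p = 0.000187). The mitochondrial one-carbon enzymes Shmt2 (0.75 ± 0.14) and Mthfd2 (0.98 ± 0.14) were higher in HSC. Of the 12 fits without 1 library, 2 lost the call of Gsta4 (highest adjusted p = 0.0533, without HSC replicate 1) and 1 that of Prdx1 (adjusted p = 0.0626 without ICO replicate 2).

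Duct transport genes were on the organoid side, 9 of 24, against 4 in HSC. Ano1, a chloride channel, had 86.2, 49.5 and 127 CPM in HSC and 302, 299 and 315 CPM in ICO (-1.76 ± 0.43, adjusted p = 0.00993), and Slc10a2, the apical bile acid transporter, had 9.6, 4.5 and 13.2 CPM and 47.8, 50.7 and 45.1 CPM (-2.36 ± 0.48, adjusted p = 0.00285). All 9 were in each HSC library at no more than 1.5 times the organoid share. Alpl, alkaline phosphatase, was on the HSC side with 378, 577 and 297 CPM in HSC and 43.4, 31 and 37.6 CPM in ICO (3.53 ± 0.41, adjusted p = 8.7e-05), as was Car12, a carbonic anhydrase (2.87 ± 0.32). Among 20 mucin and apical glycoprotein genes 7 were higher in ICO, all of them glycosyltransferases, including St3gal4 (-1.17 ± 0.16) and St6gal1 (-0.93 ± 0.29). The secreted Lcn2, lipocalin-2, was not called, at 534, 579 and 1075 CPM in HSC and 2994, 2719 and 2005 CPM in ICO. Calls that ended when 1 library was left out were those of St6gal1 (adjusted p = 0.0954 without HSC replicate 1).

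The largest fitted differences on the HSC side were those of genes with at most 1 count in the ICO libraries: Ednrb, Hoxb2, Clip3, Ptger2, Vstm4, Ahsg, Hand2, Gdf6, Lmo2 and Gpr176. All but Lmo2 had no count in the 3 ICO libraries; the lower bounds of the fold ran from 237 for Gpr176 to 1284 for Ednrb. Hand2, a transcription factor of the stellate lineage, had 14, 18.9 and 15.4 CPM in HSC. Lmo2, an adaptor of transcription factors, had 45.4, 60.6 and 38 CPM in HSC and 1 count in ICO. On the ICO side, where each of these genes also had counts summed over the HSC libraries, they were Reg3g, Reg3b, Cutal, Reg1, Adora1, Klhdc7a, Ugt1a8, Slc10a2, Svip and Cwh43. The regenerating islet-derived lectins were uneven among organoid libraries: Reg3b had 12.7, 85.4 and 16.4 CPM in ICO and 0.64, 4.14 and 2.11 CPM in HSC, and Reg3g had 3.61, 32.7 and 4.54 CPM and 0, 1.55 and 0.768 CPM. ICO replicate 2 was the highest library for both and for Reg1, and HSC replicate 2 was the highest HSC library for Reg3b and Reg3g. Adora1, an adenosine receptor, was even, with 21.4, 17.7 and 19.7 CPM in ICO and 2.69, 1.45 and 6.4 CPM in HSC. The call was lost without 1 library for Cutal, Cwh43, Klhdc7a and Ugt1a8 (adjusted p = 0.0613, 0.111, 0.0624 and 0.0756 without HSC replicate 2), Reg1 and Reg3g (adjusted p = 0.371 and 0.109 without ICO replicate 2) and Reg3b (adjusted p = 0.0828 without HSC replicate 1).

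The contrast between HSC and ICO was then set against the same contrast in separate cultures, in one fit. It differed for 2785 of 16233 genes (17.2%): 1474 moved toward HSC in the shared gel (9.08%) and 1311 toward ICO (8.08%). Without HSC alone replicate 1, the library of that group with the highest organoid share, the first count was 2308; without ICO alone replicate 3 it was 982. Among matrix genes 35 of 178 moved toward HSC and 16 toward ICO, among ligands 25 and 5 of 151, among receptors 20 and 26 of 183, and among metabolic genes 69 and 30 of 302. Within metabolism, glycolysis had 18 of 32 genes moving toward HSC and 1 toward ICO, and glutathione and detoxification genes 2 and 12 of 42. Among listed genes of at least 10 CPM in a Matrigel group, the largest moves toward HSC were those of Aldh1a2, Il11, Col12a1, Arg1, Serpine2 and Inhba. Il11 had 2.27, 0.857 and 1.01 CPM in HSC alone, 6.34, 3.58 and 2.43 CPM in ICO alone, 108, 247 and 190.0 CPM in HSC in the shared gel and 1.6, 1.38 and 2.15 CPM in ICO there, and the contrast moved by 8.27 ± 0.65 (adjusted p = 2.5e-05). Col12a1, a collagen that binds fibrils, had 1.67, 0.527 and 0.728 CPM in HSC alone and 7.63, 5.84 and 5.87 CPM in ICO alone, against 135, 115 and 97.9 CPM and 2.58, 3.59 and 4.05 CPM in the shared gel. Only the co-cultured HSC libraries were high for these 2 genes.

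For 236 genes ICO were higher in separate cultures and HSC in the shared gel, with each contrast and their difference past the threshold, and for 128 genes the reverse held. This count was added after the data had been seen. Those that turned toward HSC included Il33, an alarmin (10.5, 13 and 6.1 CPM in HSC alone and 68.1, 59.9 and 60.3 CPM in ICO alone, 201, 351 and 191 CPM and 29.5, 27.2 and 33.4 CPM in the shared gel), and Fst, follistatin (9.29, 8.57 and 0.616 and 51.9, 46.3 and 57.5 CPM, then 136, 112 and 98.7 and 23.1, 24.5 and 21.4 CPM). Fibronectin turned with them: Fn1 differed by -2.16 ± 0.26 in separate cultures and by 0.73 ± 0.25 in the shared gel. Its shared-gel call was lost in 8 of the 12 fits without 1 library. The subtraction ended both that call and its change between cultures. Genes that turned toward ICO included Gpx3, a secreted peroxidase (2.37 ± 0.19 in separate cultures and -0.58 ± 0.18 in the shared gel), Gstm1 (2.49 and -0.96) and Ramp1, a partner of the calcitonin receptor-like receptor (4.16 and -1.40). The moves of Kit, Itga8, Vipr1, Ecm1, Ramp1 and Pdk4 toward ICO were the largest of that direction under the same limit. Ecm1, a secreted stellate glycoprotein, had 6652, 10754 and 13543 CPM in HSC alone and 268, 292 and 363 CPM in co-cultured HSC, against 225, 213 and 205 CPM and 296, 327 and 283 CPM in ICO. Its ICO level did not fall with its HSC level. Macrophage markers moved with the culture: the list summed to 2630 to 3634 CPM in HSC alone and 142 to 223 CPM in co-cultured HSC, and 16.1 to 59.9 CPM in ICO alone and 28.3 to 32.3 CPM in co-cultured ICO. Their part in these differences was not tested. The organoid share was 35.0%, 12.8% and 4.12% in HSC alone, relative to ICO alone. In co-cultured HSC it was 28.6%, 14.9% and 41.9%, relative to co-cultured ICO. The part of the organoid share in these differences was not tested beyond the subtraction. Leaving out 1 library ended the call of Gpx3 (adjusted p = 0.0734 without HSC replicate 1).

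**Figure D5:**
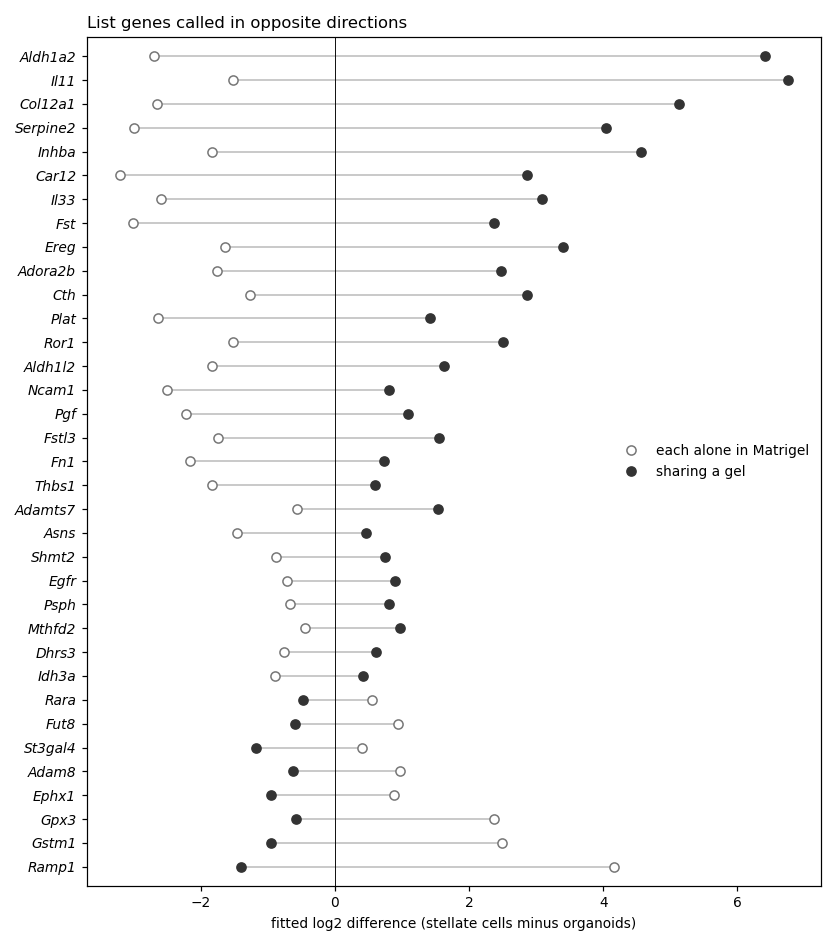
Fitted log2 difference (HSC minus ICO) in separate Matrigel cultures (open) and in the shared gel (filled) for the listed genes of at least 10 CPM in a group that were called in opposite directions. Those from Aldh1a2 to Idh3a turned toward HSC, and those from Rara to Ramp1 toward ICO. The shared-gel calls of Idh3a and Rara were lost in 5 and 8 of the 12 fits without 1 library (highest adjusted p = 0.111 and 0.187, without HSC replicate 2). Among other plotted genes, Fn1, Gpx3 and Plat also lost that call without 1 library. Some plotted genes, Fn1 and Plat among them, lost it after the subtraction.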

How the data were processed

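Bulk RNA was measured in 18 libraries. The authors deposited expected counts per gene, an estimated count made before deposit with a method not given in the sources used here; 0 columns were unmapped. Tools listed in the submitters' processing notes, with no role, are DESeq2 1.36.0 and kallisto 0.46.1, and the build is GRCm39. The counts were rounded and fitted in edgeR 4.0.16 (R 4.3.3; robust quasi-likelihood, TMM, filterByExpr) over the 12 Matrigel libraries, with Benjamini-Hochberg adjustment over all genes tested and a threshold of 0.05. DESeq2 1.42.0 was an alternative. The fit was tested on simulated data. Log2 differences carry an SE back-calculated as their size over the square root of the F statistic of the test. It is approximate where a group has few or no counts. CPM uses TMM factors over 18 libraries.

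The members and 37 gene lists were chosen with earlier results of these data known. Named were the 10 largest differences a direction of at least 10 CPM without overlap, up to 4 called members a direction and 2 uncalled per list by level, pairs with both genes called, markers, and the 6 largest interaction changes a direction. Chosen after values were seen were Fst, Gpx3, Gstm1, Hspg2, Lama2, Met, Mmp2, Mmp3, Mmp10, Mmp13, mt-Nd3, Zeb2, Snai1, Fos and Fosl2, and also the contrast of separate cultures, the comparison with the organoid share and the motifs. Replicates differed by more than sampling noise (chi-square per degree of freedom 16.5 to 56.4). Intervals and floors cover counting error only.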

Additional observations from a re-analysis of the deposited data

Results flagged for a closer look

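The difference between HSC and ICO was itself different in the shared gel and in separate cultures for 17 genes named above, by edgeR's interaction test with Benjamini-Hochberg adjustment over all genes. As log2 changes of the contrast (shared gel minus separate cultures), the moves toward HSC were Il11 8.27, Col12a1 7.79, Aldh1a2 9.10, Arg1 7.39, Serpine2 7.04, Inhba 6.38, Il33 5.68, Fst 5.38 and Fn1 2.88. Those toward ICO were Gpx3 -2.95, Gstm1 -3.45, Ramp1 -5.56, Kit -10.00, Itga8 -6.83, Vipr1 -6.29, Ecm1 -5.60 and Pdk4 -5.30. Kit, a receptor tyrosine kinase, had a mean of 22.9 CPM in HSC alone and 0.202 CPM in co-cultured HSC. Itga8 had no count in ICO alone, and Kit was under 1 CPM in every ICO library, so the size of their fitted changes depends on the prior count and is no bound. The call of Itga8 was lost in 7 of the fits without 1 library, with an adjusted p of up to 0.0929 (without co-cultured ICO replicate 3), with the replicate block (0.0817) and with no filter on low counts (0.0805). That of Fn1 was lost after the organoid share was subtracted. The organoid share differed among the HSC libraries of both cultures, and its part in these values was not tested beyond the subtraction.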

How the results depend on the processing

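The HSC side of the co-culture contrast had 2883 to 4250 calls over the settings run, 3992 with DESeq2, and 3185 to 4034 with 1 library left out. The ICO side had 1477 without HSC replicate 2, in a range of 1477 to 3000 with 1 library left out, 3691 with all 18 libraries and 3663 after the organoid share was subtracted. For the change of the contrast between cultures, the HSC side had 982 calls without ICO alone replicate 3 and 2308 without HSC alone replicate 1, the ends of its leave-one-out range, and the ICO side 916 to 1470. The cause was not tested. The titles give the co-cultured HSC and ICO libraries the same numbers, and the labels do not say whether a number marks a shared gel. Deviations of same-numbered libraries had correlations of 0.053, 0.058 and -0.035. With 3 libraries a group and an organoid share that varied on the HSC side, these cannot decide whether the numbers are pairs. The main fit took no pairs. With the replicate block the counts were 3769 and 2441, and 1280 and 1242 for the change between cultures. Of 236 results for single genes, 22 lost their call with no filter on low counts, 13 with the replicate block, 11 after the subtraction, 2 with all 18 libraries and 5 of 217 with only the 6 co-culture libraries. Beyond those given above, among them the change of Fn1 between cultures, the subtraction ended the calls of Btc, Col4a3, Flt4, Hk2 and Plat. Log2 differences of 5 uncalled genes changed sign near 0. Ccl2 was at -0.0339 with no filter, -0.0449 with all 18 libraries and -0.00964 to 0.15 with 1 library left out. Ecm1 was at -0.0273 with no filter, -0.0405 with all 18 libraries and -0.0542 to 0.14 with 1 library left out. Fbln2 was at -0.0679 with no filter, -0.0792 with all 18 libraries, -0.0505 with the subtraction and -0.0444 to 0.10 with 1 library left out. Gapdh was at 0.00398 with a filter of 10 CPM in 3 libraries, 0.014 with the replicate block and -0.15 to 0.0916 with 1 library left out. Hspg2 was at -0.0448 with no filter, -0.0561 with all 18 libraries and -0.021 to 0.15 with 1 library left out. Genes at or under 3 counts give no fold at this depth.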
